A study of Capra hircus with 6 samples.

Results

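The carriers of solute carrier family 25 (SLC25) were described in goat intramuscular preadipocytes, which are precursors of the fat cells found between muscle fibres. The deposited table of expression values lists 27271 genes, of which 18989 have a gene name, and every gene whose name is SLC25A followed by a number was taken. This gave 38 carriers. By the substrate each is best known for, 4 carry ADP and ATP, 1 carries phosphate, 3 exchange ATP-Mg for phosphate, 3 carry citrate and other carboxylates, 1 carries carnitine, 8 carry amino acids, 6 carry cofactors and nucleotides, 2 carry iron, 2 are related to the uncoupling proteins, and 8 have another or an unknown substrate. Of 48 carriers looked for by symbol, the other 10 had no row under that symbol, among them the carriers SLC25A10 and SLC25A39, and they were not analysed here.

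SLC25 carriers sit in the inner membrane of the mitochondrion, with a few exceptions, and exchange small molecules between the matrix and the cytosol. ADP/ATP carriers and the phosphate carrier supply the ATP synthase and export its product. The citrate carrier brings citrate to the cytosol, where it is split into the acetyl-CoA that fatty acid synthesis uses, and the carnitine carrier brings long-chain acyl groups into the matrix for oxidation, so that carriers stand at both ends of the fat cell's lipid metabolism.

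Primary cells from the longissimus dorsi of 3-day-old Jianzhou goats, labelled as wild type, were plated at passage 3 and transfected either with control siRNA (the NC groups, n = 3) or with siRNA to silence LIPG, the endothelial lipase gene (the Si-LIPG groups, n = 3). All cells of both groups then received induction medium with 50 μmol/L oleic acid and were harvested after 48 h, so no uninduced or untransfected cells were compared. The sources used here do not say whether the libraries of a group came from separate animals, so p-values measure only the spread between these libraries.

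Few reads lay on genes. The libraries had 36451898 to 52638817 reads in all, of which 0.997% to 1.53% were counted on genes in the NC groups and 1.80% to 2.88% in the Si-LIPG groups. The share was 1.31% ± 0.279 (SD, n = 3) in NC and 2.44% ± 0.566 (SD, n = 3) in Si-LIPG, a difference of 1.13 percentage points with no overlap (exact permutation test, two-sided, p = 0.1, as small as 3 against 3 can give). NC 1 stood apart, with the fewest reads on genes (524776) and a TMM factor, the scaling factor that edgeR derives from the bulk of the genes, of 0.601 against 0.927 to 1.37 in the others. LIPG itself had counts of 0, 2 and 0 in NC and 0, 2 and 2 in Si-LIPG, too few to check the labels. The groups therefore follow the library titles alone. ND6, which lies on the strand opposite to the other 12 mitochondrial protein genes, had 22.6 to 99.3 times their median count per kb. The library protocol keeps the strand and the strand setting of the counting is not given in the sources used here, so for each carrier the reads of its own strand and of the opposite strand cannot be told apart, and every value below is a number of reads counted on a gene rather than a measured amount of its mRNA. Markers of preadipocytes and adipocytes summed to 1259 to 1660 TMM-normalized CPM (counts scaled to a common library size) in NC and 962 to 1242 in Si-LIPG, with 6 of the 10 listed in the table counted in every library, DLK1 at 0 in all and ADIPOQ counted in Si-LIPG 2 alone. Without TMM factors the order of the groups turned, with 976 to 1214 in NC and 1253 to 1414 in Si-LIPG. Muscle markers summed to 156 to 256 TMM-normalized CPM in NC and 225 to 247 in Si-LIPG, immune markers to 23.6 to 48.6 and 16.3 to 22.6 with PTPRC at 0, and endothelial markers to 0 to 7.20 and 0 to 5.70 with KDR and CDH5 at 0. The part of these differences in the carrier results was not tested, and fewer cells of a type and less RNA per cell cannot be told apart in bulk libraries.

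All carriers together had 160, 314 and 392 counts in NC 1, 2 and 3 and 564, 841 and 1024 in Si-LIPG 1, 2 and 3. Per 1000 reads counted on genes, they held 0.461 ± 0.137 reads (SD, n = 3) in NC and 0.827 ± 0.163 (SD, n = 3) in Si-LIPG, a ratio of 1.79. Every Si-LIPG library was above every NC library on that scale. With library sizes alone, the 6574 genes tested below had a median log2 fold change of Si-LIPG over NC of 0.74. Genes in general were thus higher too, and the ratio is not read as particular to the carriers. The share of all genes without overlap on that scale was not counted. Over all reads in the files the same carriers held 6.31 ± 2.89 CPM in NC and 20.8 ± 8.31 in Si-LIPG, a larger gap because the share of reads on genes differed too. The number of carriers with a count was 16, 22 and 25 in NC and 26, 28 and 31 in Si-LIPG, so the less a library had on genes, the more carriers were at 0 in it.

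Of the 38 carriers, 33 had a count in at least 1 library, or 86.8%, and 14 had counts in all 6. The 5 at 0 throughout were SLC25A31, an ADP/ATP carrier known from the testis, SLC25A2, an ornithine carrier, and SLC25A34, SLC25A45 and SLC25A48 of the class with another or unknown substrate. Among all genes with a name 35.6% were at 0 in every library, against 13.2% of the carriers. With a limit of 3 counts for a carrier at 0, which covers counting error only, carriers below 2.85 to 5.72 CPM over the reads on genes, depending on the library, were not detectable. Counts were found only in Si-LIPG libraries for 7 carriers, or 18.4%, against 7.93% of all genes with a name, and only in NC libraries for 0, against 2.99%. These 7 were SLC25A14, SLC25A21, SLC25A27, SLC25A35, SLC25A42, SLC25A43 and SLC25A47. Their highest total was 22 counts. The shares of genes counted in a single group have unlike bases, since a gene at 0 throughout cannot enter them and carriers were less often at 0. Si-LIPG libraries also had more reads on genes, so nothing is read from that gap.

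The carrier reads were spread unevenly. With libraries weighted alike, ADP/ATP carriers held 30.7% ± 3.92 of the carrier reads in NC and 37.8% ± 3.80 in Si-LIPG (SD, n = 3 each, here and for the other classes). ATP-Mg/phosphate carriers held 22.7% ± 13.1 and 9.36% ± 2.37, the phosphate carrier 14.4% ± 5.10 and 12.3% ± 1.46, citrate and other carboxylate carriers 12.1% ± 2.20 and 11.3% ± 2.35, and amino acid carriers 10.5% ± 1.69 and 14.1% ± 3.75. The order of the classes after the first thus differed between the groups. The carnitine carrier held 0% to 0.510% in NC and 1.56% to 3.55% in Si-LIPG, without overlap, where the 0% in NC 1 stands for 0 of 160 carrier reads. Those related to uncoupling proteins held 0% in NC and 0.355% to 1.56% in Si-LIPG, also without overlap. The share of all genes without overlap on this scale was not counted, and nothing is read from either class. Iron carriers, cofactor and nucleotide carriers and the class with another or unknown substrate held at most 6.63% in any library. The share of ATP-Mg/phosphate carriers ran from 10.2% to 36.2% in NC and from 7.61% to 12.1% in Si-LIPG, and that of ADP/ATP carriers from 26.2% to 33.7% and from 33.5% to 40.8%. These last 2 classes overlapped between the groups, and NC 1 held the highest ATP-Mg/phosphate share and the lowest ADP/ATP share.

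**Figure D1:**
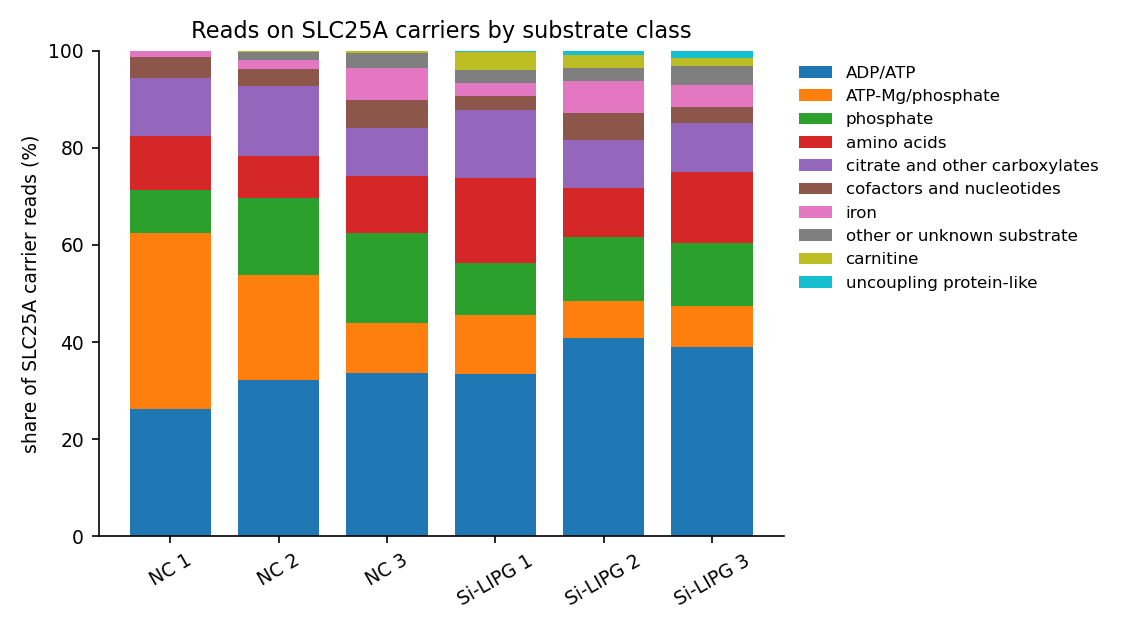
Share of the reads on SLC25A carriers (%, y axis) that each substrate class held in each of the 6 libraries (x axis), as stacked bars that sum to 100%. ADP/ATP carriers are the lowest segment, at 26.2% to 40.8%, and the ATP-Mg/phosphate segment above it is at 36.2% in NC 1, 10.2% in NC 3 and at most 12.1% in Si-LIPG.

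To compare levels between carriers, the deposited FPKM values were used, which correct for gene length. SLC25A6 had the highest level, 180 FPKM over all libraries, and stood at rank 404 among all genes. SLC25A3 followed with 71.8 FPKM, SLC25A41 with 68.9, SLC25A1 with 45.4, SLC25A4 with 35.5 and SLC25A11 with 29.2. The order of SLC25A3 and SLC25A41 was not separated by the spread between libraries, as SLC25A3 had 58.6 ± 32.8 FPKM in NC and 85.0 ± 24.7 in Si-LIPG (SD, n = 3 each), and SLC25A41 had 80.3 ± 29.9 and 57.4 ± 15.3. The next 8, SLC25A37, SLC25A15, SLC25A17, SLC25A23, SLC25A20, SLC25A44, SLC25A38 and SLC25A5, lay between 15.7 and 9.55 FPKM. Their order differed between the groups, as SLC25A23 had 10.0 ± 3.78 FPKM in NC and 14.1 ± 9.23 in Si-LIPG, and SLC25A20 had 1.66 ± 1.58 and 22.3 ± 4.82. The lengths used by the authors were a multiple of 3 for 22 of the 33 counted carriers and for 60.2% of all genes with a length, so for many genes the length may be that of the coding part only.

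Carriers were compared between the groups in a single edgeR quasi-likelihood fit of 6574 genes with enough counts, scaled by TMM. The criterion, the one the study used, asked for a fold change over 1.5 at an unadjusted p under 0.05. Of the 38 carriers 14 passed the filter, or 36.8% against 29.8% of all genes with a name, and they held 86.0% of the carrier reads. SLC25A20, SLC25A13 and SLC25A44 had at most 2, 6 and 2 counts in any NC library and so owed their place to their Si-LIPG counts. Some other tested carriers with low NC counts depended on Si-LIPG counts too. SLC25A29, for example, had 0, 3 and 9 in NC and 12, 21 and 15 in Si-LIPG. At the criterion stood 3 of the 14 tested carriers, or 21.4%, close to the 20.7% of all tested genes. SLC25A20 and SLC25A13 were higher in Si-LIPG, as were 7.83% of all tested genes, and SLC25A41 was lower, as were 12.9%. None of the 14 had an adjusted p under 0.05 (edgeR, 0 carriers, against 6.51% of all tested genes), and the same 3 had an unadjusted p under 0.05. The number at the criterion was 5 without NC 3, 1 without Si-LIPG 2, 1 without Si-LIPG 3, and 2 or 3 without any other library. These were among 14 to 19 carriers that passed the filter in those fits. Over all genes those fits placed 871 to 1692 at the criterion, among 6654 to 7744 tested genes. DESeq2 tested 33 carriers, with 0 at an adjusted p under 0.05 against 4.01% of all its genes. It placed the same 3 at the criterion, 9.09% against 11.4%, with 2 of them higher, 6.06% against 4.24%. Over all genes DESeq2 placed 629 at the criterion as higher in Si-LIPG and 1064 as lower. The study describes more genes up than down in Si-LIPG, the reverse order. Why the orders differ was not tested, so every direction given here rests on the library titles.

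The direction of a carrier depended on the scaling. The log2 fold change, given as Si-LIPG over NC, had a median over all tested genes of 0.16 with TMM, 0.74 on library sizes alone and 1.58 on the scale of all reads. That of the 14 tested carriers was 0.71, 1.25 and 2.07, so it stood 0.55, 0.51 and 0.49 above the median of all tested genes. Without NC 1, with TMM, the same 14 carriers stood 0.21 above, and 0.09 with the other 5 that then passed the filter. With library sizes alone 7 carriers were at the criterion, all higher in Si-LIPG, against 24.2% of all tested genes higher and 6.01% lower. Scaled to all reads 7 were as well, again all higher, against 46.1% higher and 0.0304% lower, and 3 of them, SLC25A13, SLC25A20 and SLC25A44, had an adjusted p under 0.05 (edgeR), or 21.4% against 11.4%. These 3 passed the filter through their Si-LIPG counts, so their direction was partly fixed by it and nothing is read from that share. After TMM normalization 10 of the 14 were above 0 (71.4%, against 58.4% of all tested genes), and scaled to all reads all 14 were. The median is a description, since a low carrier passed the filter only where it was high.

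**Figure D2:**
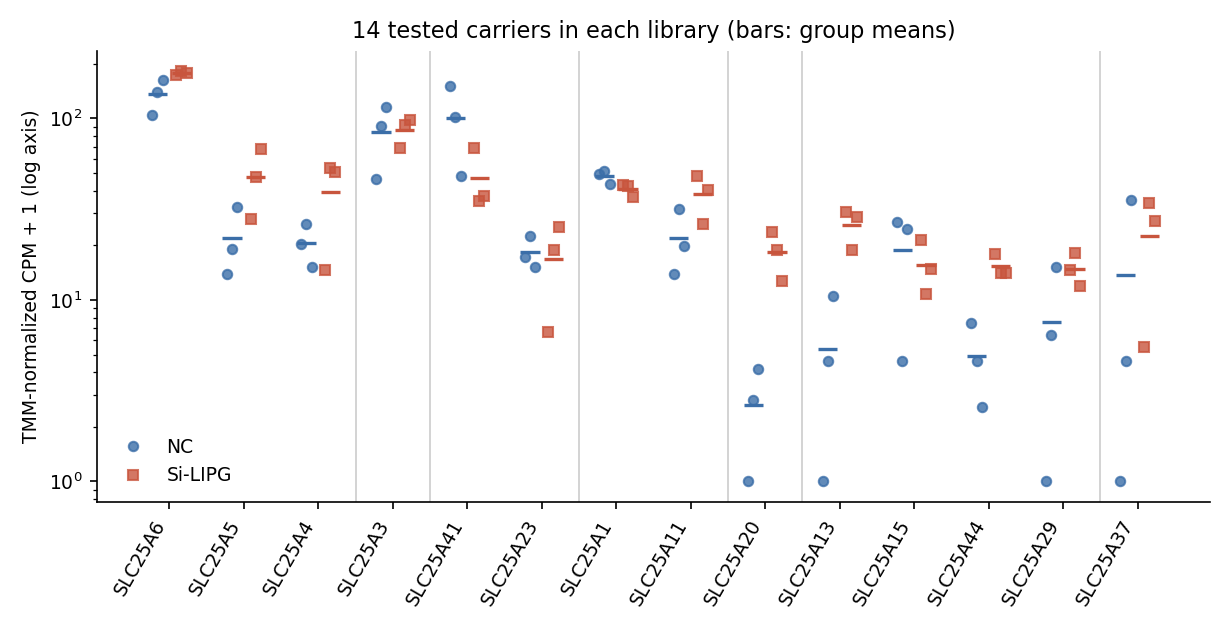
TMM-normalized CPM plus 1 (y axis, log scale) of the 14 tested carriers (x axis, ordered by substrate class) in 3 NC libraries (circles) and 3 Si-LIPG libraries (squares), with short bars at the group means. SLC25A6, SLC25A13, SLC25A20 and SLC25A44 have every Si-LIPG library above every NC library, and SLC25A1 has every Si-LIPG library below.

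The groups did not overlap in TMM-normalized CPM for 5 of the 14 tested carriers. SLC25A6, SLC25A13, SLC25A20 and SLC25A44 were higher in every Si-LIPG library, or 28.6% beside 15.2% of all tested genes. As SLC25A13, SLC25A20 and SLC25A44 passed the filter through their Si-LIPG counts, their direction was partly fixed by it, and nothing is read from that share. SLC25A1 was lower in every Si-LIPG library, or 7.14% beside 13.4%.

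The ADP/ATP carriers exchange cytosolic ADP for ATP made in the matrix. SLC25A6 (ENSCHIG00000012144) had 32, 77 and 103 counts in NC 1, 2 and 3 and 153, 222 and 241 in Si-LIPG 1, 2 and 3. Its TMM-normalized CPM was 104, 139 and 162 in NC and 173, 181 and 176 in Si-LIPG, so the groups lay apart by less than the spread within NC. Its log2 fold change was 0.38 (SE 0.31), which did not pass the criterion (edgeR, adjusted p = 0.552).

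SLC25A5 (ENSCHIG00000007023) had 4, 10 and 20 counts in NC and 24, 57 and 91 in Si-LIPG. On the TMM scale it had 20.8 ± 9.59 CPM in NC and 46.7 ± 19.7 in Si-LIPG (SD, n = 3 each), with Si-LIPG 1 below NC 3. The difference on the log2 scale was 1.12 (SE 0.54), just outside the criterion (edgeR, adjusted p = 0.255). It met the criterion without NC 3, at 1.56, and without Si-LIPG 1, at 1.32, with adjusted p-values of 0.159 to 0.724 over the fits without a library.

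SLC25A4 (ENSCHIG00000026699) had 6, 14 and 9 counts in NC and 12, 64 and 68 in Si-LIPG. Here Si-LIPG 1 lay below every NC library while Si-LIPG 2 and 3 lay above them, at 13.5, 52.1 and 49.7 TMM-normalized CPM against 14.2 to 25.2 in NC. The log2 fold change was 0.98 (SE 0.61, edgeR adjusted p = 0.394), and without Si-LIPG 1 it was 1.32, which met the criterion. The testis-type member SLC25A31 (ENSCHIG00000017838) had 0 counts in every library. Within the reads of this class SLC25A6 held 76.2%, 76.2% and 78.0% in NC and 81.0%, 64.7% and 60.2% in Si-LIPG. SLC25A5 held 9.52% to 15.2% of them in NC and 12.7% to 22.8% in Si-LIPG. The 3 counted members are close copies of one another, and reads that fit more than 1 of them could have been dropped. In each library 3.50% to 3.80% of all reads were listed as not aligned uniquely, so the shares within this class are uncertain.

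The phosphate carrier SLC25A3 (ENSCHIG00000026853) imports the phosphate that the ATP synthase joins to ADP. It had 14, 50 and 73 counts in NC and 60, 112 and 133 in Si-LIPG, or 45.4, 90.1 and 115 TMM-normalized CPM in NC and 67.7, 91.3 and 97.1 in Si-LIPG. The Si-LIPG libraries lay within the range of the NC libraries. Its log2 fold change was 0.01 (SE 0.39, edgeR adjusted p = 0.995), with 1.38 when scaled to all reads.

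The citrate carrier SLC25A1 (ENSCHIG00000015498) had 15, 28 and 27 counts in NC and 37, 51 and 49 in Si-LIPG. Its TMM-normalized CPM was 48.6, 50.4 and 42.6 in NC and 41.7, 41.6 and 35.8 in Si-LIPG, so all Si-LIPG libraries were below all NC libraries. This gave a log2 fold change of -0.25 (SE 0.41, edgeR adjusted p = 0.797) after TMM normalization, but 0.34 with library sizes alone and 1.18 when scaled to all reads. Its FPKM had the other order as well, with 40.4 ± 9.59 in NC and 50.3 ± 4.90 in Si-LIPG (SD, n = 3 each). SLC25A11, which exchanges oxoglutarate for malate in the malate-aspartate shuttle, had a log2 fold change of 0.80 (SE 0.55, edgeR adjusted p = 0.452), with 20.8 ± 8.98 TMM-normalized CPM in NC and 37.4 ± 11.2 in Si-LIPG. It overlaps RNF167 in the RefSeq annotation. SLC25A21, the oxodicarboxylate carrier, had a single count in Si-LIPG 3.

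The carnitine-acylcarnitine carrier SLC25A20 (ENSCHIG00000010462) had 0, 1 and 2 counts in NC 1, 2 and 3 and 20, 22 and 16 in Si-LIPG 1, 2 and 3. On the TMM scale it had 0, 1.80 and 3.15 CPM in NC against 22.6, 17.9 and 11.7 in Si-LIPG. The log2 fold change was 3.07 (SE 1.06), the largest among the tested carriers. It met the criterion but not the adjusted threshold (edgeR, adjusted p = 0.0956). From the 3 counts summed over NC and the 58 over Si-LIPG, the ratio over TMM library sizes was 8.32, with an exact 95% interval of 2.71 to 41.5 that covers counting error only. That interval pools the libraries and leaves out the spread between them. SLC25A20 passed the filter through its Si-LIPG counts, so its direction was partly fixed and the interval only describes these counts. Scaled to all reads, the log2 fold change was 4.30 (edgeR, adjusted p = 0.0462). The criterion was lost without Si-LIPG 1 (2.80) and without Si-LIPG 2 (3.07), and over the fits without a library the adjusted p ran from 0.123 to 0.405. SLC25A20 overlaps a pseudogene (LOC102186532) in the RefSeq annotation, and its NC counts were all at or under the limit of 3 counts.

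The amino acid carriers had 8 members, of which 4 were tested and 1, SLC25A13, met the criterion. SLC25A13 (ENSCHIG00000022398), or citrin, exchanges aspartate for glutamate and is a part of the malate-aspartate shuttle. Its counts were 0, 2 and 6 in NC and 26, 22 and 38 in Si-LIPG. On the TMM scale these were 0, 3.60 and 9.46 CPM in NC and 29.3, 17.9 and 27.8 in Si-LIPG, without overlap. The log2 fold change was 2.30 (SE 0.87, edgeR adjusted p = 0.132), and it was 3.58 when scaled to all reads (edgeR, adjusted p = 0.0493). It fell outside the criterion without Si-LIPG 1 (2.12) or Si-LIPG 3 (2.25), with adjusted p-values of 0.0766 to 0.441 over the fits without a library. No other gene overlapped SLC25A13 or lay within 1 kb of it in the RefSeq annotation.

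SLC25A44, a carrier of branched-chain amino acids, had 2, 2 and 1 counts in NC and 15, 16 and 18 in Si-LIPG. All Si-LIPG libraries were above all NC libraries, at 14.4 ± 2.21 against 3.89 ± 2.47 TMM-normalized CPM (SD, n = 3 each), and the log2 fold change of 1.97 (SE 0.98) was just outside the criterion (edgeR, adjusted p = 0.274). Scaled to all reads it was 3.43 (edgeR, adjusted p = 0.0462). In the RefSeq annotation SLC25A44 lies within 1 kb of the gene PMF1. SLC25A15, the ornithine carrier of the urea cycle and the member of this class with the highest FPKM, had 8, 2 and 15 counts in NC and 18, 12 and 19 in Si-LIPG. Its groups overlapped, and its log2 fold change was -0.25 (edgeR, adjusted p = 0.904) with TMM and 1.20 on the scale of all reads. SLC25A29, a carrier of basic amino acids, had a log2 fold change of 0.92 (SE 0.95, edgeR adjusted p = 0.653). SLC25A12, the close relative of citrin known as aralar, had 15 counts over NC and 39 over Si-LIPG and was not tested. The glycine carrier SLC25A38 had 12 and 37, and the glutamate carrier SLC25A22, which lies within 1 kb of the gene PIDD1, had 14 and 25.

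The ATP-Mg/phosphate carriers adjust the pool of adenine nucleotides in the matrix. SLC25A41 (ENSCHIG00000017363) had 46, 56 and 30 counts in NC and 60, 42 and 50 in Si-LIPG. Its counts thus overlapped, and only the scaling set the groups apart: TMM-normalized CPM was 149, 101 and 47.3 in NC and 67.7, 34.2 and 36.5 in Si-LIPG, where NC 3 still lay below Si-LIPG 1. After scaling, the log2 fold change was -1.08 (SE 0.46, edgeR adjusted p = 0.184) with TMM and 0.40 on the scale of all reads, the other direction. The criterion was lost without NC 1 (-0.71), NC 2 (-1.04), Si-LIPG 2 (-0.87) or Si-LIPG 3 (-0.89), and the adjusted p ran from 0.0657 to 0.540. SLC25A41 overlaps a long non-coding RNA gene (LOC102178619) and lies within 1 kb of SLC25A23, its relative with calcium-binding motifs. SLC25A23 had 17.3 ± 3.84 TMM-normalized CPM in NC and 15.9 ± 9.40 in Si-LIPG (SD, n = 3 each). Its log2 fold change was -0.11 (SE 0.73, edgeR adjusted p = 0.956), and 1.47 when scaled to all reads. SLC25A25 had 8 counts over NC, 7 of them in NC 1, and 6 over Si-LIPG, and was not tested.

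**Figure D3:**
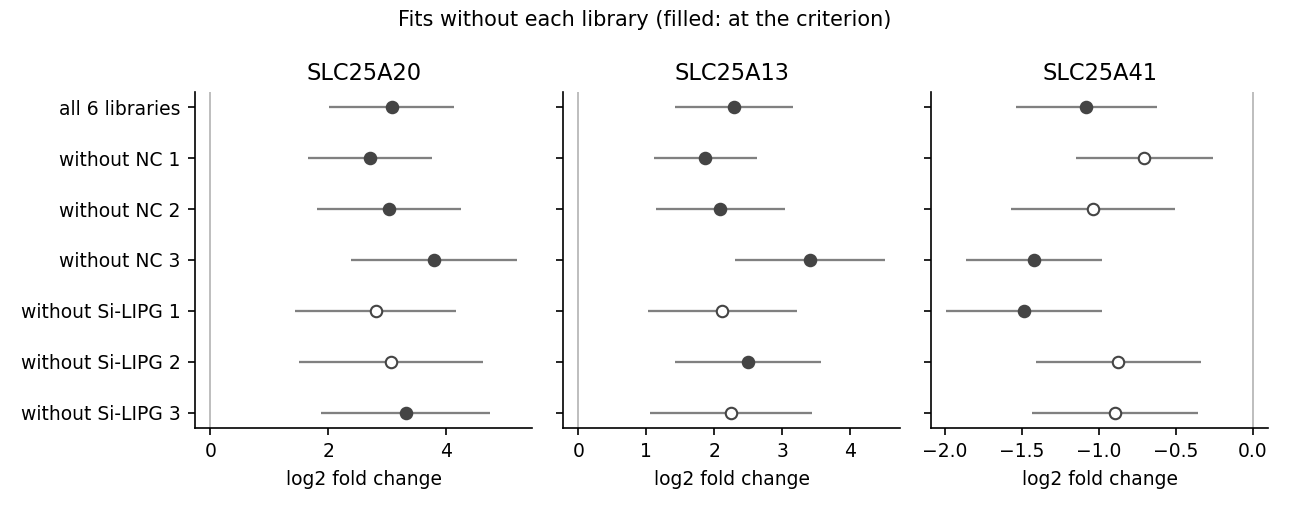
Log2 fold change (x axis, Si-LIPG over NC, bars show the standard error) of SLC25A20, SLC25A13 and SLC25A41 with all 6 libraries and without each library (y axis), filled where the criterion was met. Every value keeps its sign, SLC25A20 ranges from 2.71 to 3.79, SLC25A13 from 1.87 to 3.41 and SLC25A41 from -1.49 to -0.71.

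Of the iron carriers, SLC25A37, or mitoferrin-1, had 0, 2 and 22 counts in NC and 4, 41 and 36 in Si-LIPG. NC 3 lay among the Si-LIPG libraries and Si-LIPG 1 among the NC libraries. The log2 fold change was 0.63 (SE 0.97, edgeR adjusted p = 0.779), and it was 3.21 without NC 3, which met the criterion, but 0.14 without NC 1, 0.15 without NC 2 and 0.16 without Si-LIPG 2. In the RefSeq annotation SLC25A37 overlaps a long non-coding RNA gene (LOC102178073). SLC25A28, or mitoferrin-2, had 10 counts over NC and 35 over Si-LIPG and was not tested.

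None of the 6 cofactor and nucleotide carriers was tested. SLC25A17, the peroxisomal carrier of coenzyme A and other nucleotides, had 6, 2 and 0 counts in NC and 14, 37 and 9 in Si-LIPG. Before any scaling every Si-LIPG count was above every NC count, but in TMM-normalized CPM the groups overlapped, with 19.5, 3.60 and 0 in NC and 15.8, 30.1 and 6.57 in Si-LIPG. It passed the filter in 4 of the fits without a library. Its log2 fold change met the criterion without NC 1 (3.23) and did not without NC 2 (1.11), NC 3 (0.74) or Si-LIPG 3 (1.82), nor in DESeq2 (1.35). The NAD carrier SLC25A51 had 8 and 16, SLC25A16 had 2 and 6, the pyrimidine nucleotide carrier SLC25A33 had 2 and 4, and the coenzyme A carrier SLC25A42 had 0 and 2.

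The remaining 10 carriers, also not tested, were low. SLC25A46, an outer membrane protein of mitochondrial dynamics, had 0, 5 and 11 counts in NC and 11, 8 and 26 in Si-LIPG, with overlap. SLC25A43, an orphan carrier, had 0 in every NC library and 1, 10 and 11 in Si-LIPG. With 3 counts allowed for the whole NC group and the Si-LIPG sum taken as exact, the ratio was 3.15. That ratio leaves out counting error in Si-LIPG and the spread between libraries. SLC25A14, a relative of the uncoupling proteins, had 0 in every NC library and 2, 6 and 12 in Si-LIPG, a ratio of 2.87 computed in the same way and with the same limits. SLC25A27, the other such relative, SLC25A35, SLC25A47 and SLC25A53 had at most 7 counts over all libraries.

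**Figure D4:**
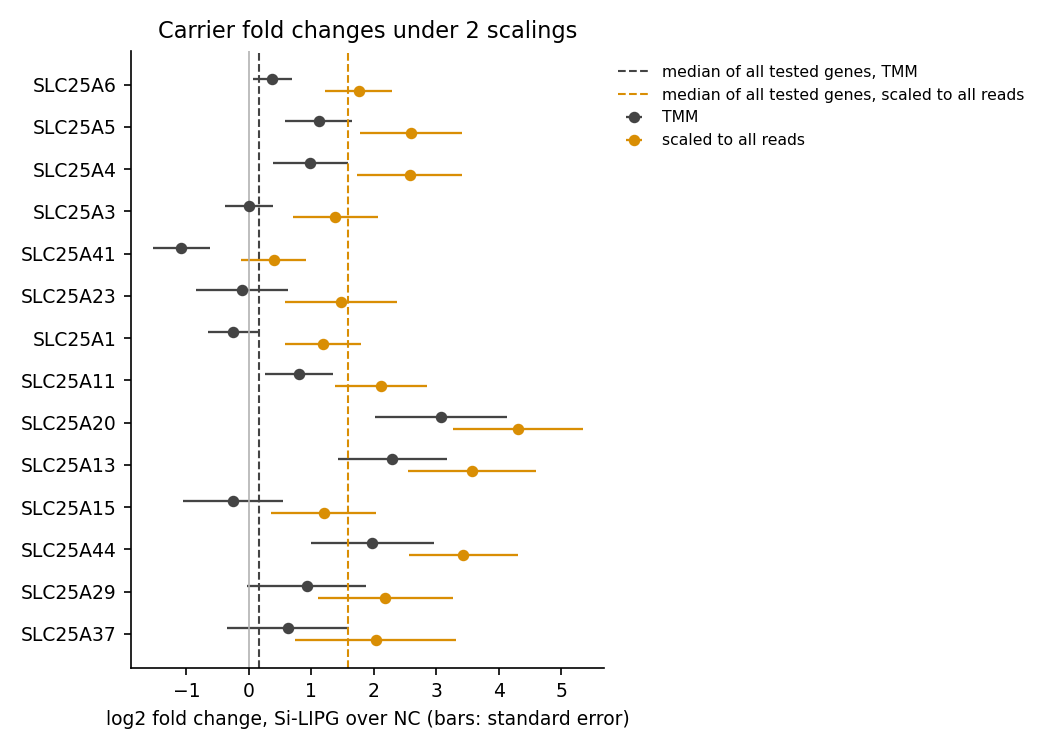
Log2 fold change (x axis, Si-LIPG over NC, bars show the standard error) of the 14 tested carriers (y axis) after TMM normalization (dark) and scaled to all reads (orange), with dashed lines at the medians of all tested genes, 0.16 and 1.58. All 14 lie above 0 when scaled to all reads and 10 do after TMM normalization, and SLC25A41, SLC25A1, SLC25A15, SLC25A23 and SLC25A3 are below the median line on both scales.

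Genes that work beside the carriers were counted at the same criterion. Of 53 listed, 42 were in the table and 26 were tested, of which 3 met the criterion as higher in Si-LIPG, beside 7.83% of all tested genes, and 0 as lower, beside 12.9%. Their median log2 fold change was 0.35, or 0.19 above that of all tested genes, and 18 of the 26 were above 0, as were 58.4% of all tested genes. The import machinery of the TOM and TIM22 complexes, which brings carriers to the inner membrane, had 4 tested genes, none at the criterion and a median of 0.37. The 4 tested carnitine shuttle enzymes also had none, with a median of 0.20, and neither had the 6 genes of the calcium uniporter, with a median of -0.30, which turned to 1.34 when scaled to all reads. Of the same family under other symbols, MTCH2 and MTCH1, the mitochondrial carrier homologs, were tested, with log2 fold changes of 1.58 and 0.54 and none at the criterion.

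The 3 partner genes at the criterion handle the substrates of the carriers. ACLY, ATP citrate lyase, which splits the citrate that SLC25A1 exports, had 21, 53 and 51 counts in NC and 167, 192 and 184 in Si-LIPG. Its groups did not overlap, with 81.3 ± 13.7 TMM-normalized CPM in NC and 159.8 ± 27.2 in Si-LIPG (SD, n = 3 each), and its log2 fold change was 0.96 (SE 0.33, edgeR adjusted p = 0.0942). The criterion was lost without Si-LIPG 1 (0.77). MDH2, the malate dehydrogenase of the matrix, had 24, 40 and 79 counts in NC and 127, 220 and 218 in Si-LIPG. It had a log2 fold change of 0.80 (SE 0.34, edgeR adjusted p = 0.182), without overlap, and met the criterion in the absence of NC 3 but of no other library, with 0.65 to 0.82 in those 5 fits. VDAC2 is an outer membrane channel through which ATP and ADP pass. It had 12, 35 and 40 counts in NC and 57, 215 and 135 in Si-LIPG. Its log2 fold change was 1.01 (SE 0.42, edgeR adjusted p = 0.175), and the criterion was lost without NC 1 (0.82) and Si-LIPG 2 (0.54). VDAC2 did not overlap either, with at most 63.0 TMM-normalized CPM in NC and at least 64.3 in Si-LIPG. Among all tested genes 15.2% were higher in every Si-LIPG library.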

How the data were processed

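RNA-seq was measured in 6 libraries of poly(A) RNA, 3 NC and 3 Si-LIPG, grouped by their titles. The authors deposited counts as whole numbers of reads per gene, with no normalization, and 5 further rows for reads on no gene, which entered no library size or test and held 97.1% to 99.0% of a library. FPKM values of the same genes were deposited by the authors in a single table, scaled by gene length and by the reads on genes. The submitters' processing notes name fastp, HISAT2, SAMtools and HTSeq. Versions, genome build, annotation and strand setting are not given in the sources used here.

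Counts were tested in R 4.3.3 with edgeR 4.0.16 (filterByExpr, TMM, quasi-likelihood test, no covariate). Adjusted p-values follow Benjamini-Hochberg over all 6574 tested genes. limma 3.58.1 on log2(FPKM + 1) or log2(FPKM + 0.1) and DESeq2 1.42.0 were alternatives, beside other scalings, other filters, a replicate block, other thresholds and leaving out each library. The edgeR test was tested on simulated data. Replicate libraries differed by more than sampling noise, with a chi-square of 4.21 to 12.5 per degree of freedom. Intervals and limits cover counting error only, since reads are not independent molecules.

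The carriers and partner lists were chosen with earlier results of these data known. Named with counts were the ADP/ATP, phosphate, citrate and carnitine carriers, those at the criterion and the one with the highest FPKM in each class; other tested carriers were named with their fold change, and SLC25A44, SLC25A43 and the remaining untested ones were added after their values were seen. The values of 1 untested carrier are not reported here. Neighbouring genes came from RefSeq (assembly ARS1.2) for the 31 carriers placed on numbered chromosomes. Its coordinates served only to find genes that overlap or lie within 1 kb, and none is printed, as the build of the files is not named. No sequence is printed, as none was among the sources used here.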

Additional observations from a re-analysis of the deposited data

How the results depend on the processing

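Against 3 carriers at the criterion, 7 were found with library sizes alone and 7 scaled to all reads, 6 with no filter, 6 with limma on log2(FPKM + 1), 6 on log2(FPKM + 0.1), 8 with limma and no filter, 0 of the 4 with at least 10 counts in every sample, 0 at an adjusted p under 0.05, and 1 to 5 without each library. Against 3 partner genes, 7 were found with library sizes alone, 15 scaled to all reads, 5 with no filter, 5 with the replicate block, 6 with limma on log2(FPKM + 1), 12 with limma and no filter, and 1 to 6 without each library. Calls at the criterion over all genes moved too, from 1361 of 6574 tested genes. They were 1983 with library sizes alone, 3032 scaled to all reads and 1550 with the replicate block, each of 6574. With no filter they were 2044 of 14848, and with at least 10 counts in every sample 1066 of 2757. With limma they were 1912 and 1671 of 6574, and 2512 of 14848 with no filter. So nothing is read from the counts above. The share of reads on genes differed by 0.903 to 1.44 percentage points without each library.

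The replicate block gave 4 carriers at the criterion (SLC25A5 beside the main 3), with 0 at an adjusted p under 0.05 in edgeR. The correlations of same-numbered libraries' deviations were 0.21, 0.06 and 0.11, so the numbers were not taken to pair the libraries. Over all genes the block moved the calls at an adjusted p under 0.05 from 428 to 925, DESeq2 made 595, library sizes alone 123, scaling to all reads 750, no filter 623, at least 10 counts 714 and limma 0 in each of its 3 settings, where 1912, 1671 and 2512 genes met the criterion. Without a library there were 0 such calls, except 525 without NC 3 and 648 without Si-LIPG 1. Of all genes, 515 met the criterion as higher and 846 as lower with TMM, 1588 and 395 with library sizes alone, and 3030 and 2 scaled to all reads.

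Directions turned for 5 carriers. With library sizes alone SLC25A23 was at 0.52, SLC25A1 at 0.34 and SLC25A15 at 0.37 on the log2 scale, and scaled to all reads they were at 1.47, 1.18 and 1.20 and SLC25A41 at 0.40. In limma on log2(FPKM + 1), with and without the filter, the first 3 were at 0.25, 0.33 and 0.60, and on log2(FPKM + 0.1) at 0.25, 0.34 and 0.69. SLC25A1 was at 0.0196 with at least 10 counts in every sample. SLC25A3 was at -0.0321 with DESeq2's size factors and -0.00835 with counts halved. Without each library SLC25A23 ranged from -0.53 to 0.22, SLC25A15 from -0.75 to 0.12 and SLC25A3 from -0.28 to 0.30. The causes were not tested.

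Counts halved and rounded up, an alternative chosen after even counts were seen to be more frequent than odd ones (64.3% to 68.8% of counts from 1 to 10 per library, and 48 of 75 among the carriers), left 7 carriers to test, 2 of them at the criterion (SLC25A41 and SLC25A5), and did not test SLC25A20 and SLC25A13. Over all genes that alternative placed 1133 of 4338 at the criterion. In the main fit the lowest total among tested carriers was 54 counts, and the highest among the 24 not tested was 68. The totals thus overlap, since the filter also looks at the counts in each library.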
